A study of Mus musculus with 4 samples.

Results

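Glycolysis and hypoxia response genes were examined in 4 RNA-seq libraries of the mouse mammary carcinoma cell line 4T1. The set was given as 38 gene symbols, which cover glucose uptake, the glycolytic enzymes, the control of pyruvate and lactate, the hypoxia-inducible factor HIF-1α with its hydroxylases, and targets of that factor. A member was counted when its level reached 1 TPM (a transcript level normalised to length and library total) in at least 1 library, and 36 of the 38 did so, out of 24411 genes in all. The 2 members outside this limit, Slc2a3 and Slc16a3, were listed at 0 in every library, and the member whose highest value lay closest above it was Ldhb at 8.87 TPM. All 38 symbols, including Ero1l (now Ero1a), were found in the deposited tables.

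Glycolysis splits glucose into pyruvate, which lactate dehydrogenase turns into lactate or which enters the mitochondria. Cells under low oxygen raise this route through HIF-1α, a transcription factor subunit that prolyl hydroxylases mark for destruction when oxygen is present. Its targets include glucose transporters and most glycolytic enzymes, and also genes for pH balance, blood vessel growth and mitophagy. Tumour cells often keep the route high in the presence of oxygen as well.

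Both groups were 4T1 cells in culture. The control group had 2 libraries and the group labelled CD95ko had 2. CD95, encoded by Fas, is the receptor for Fas ligand. Per the labels' protocols, the knockout lines were single-cell clones of 4T1 cells that stably carried lentiviral Cas9 under blasticidin, transfected with a pair of guides for a deletion of exon 9 of Fas. The protocols also name an untransduced control and the Cas9 line as RNA sources, and the sample titles do not tell which control is which, so the clones may share Cas9 and selection with 1 control only. Each knockout library thus stands for 1 clone, and the spread within that group is a spread between clones. No label names an oxygen level or a hypoxia treatment.

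Fas itself was listed at 49.4 and 39.2 TPM in controls 1 and 2, at 15.8 TPM in the library labelled CD95ko1 and at 49.5 TPM in the library labelled CD95ko2. Fas transcript was therefore not lower in the library labelled CD95ko2, and gene-level TPM does not read the deleted exon by itself, so every direction below refers to the libraries as labelled. Genes above 0 numbered 11193 to 12010 per library, and sequencing depth is unknown from TPM. Of 7 mammary epithelial markers, 6 were expressed, with summed levels of 2794 and 2873 TPM in the controls, against 4954.5 and 8718 TPM in the libraries labelled CD95ko. Of 8 leukocyte markers, 7 were at 0 in all libraries, Ptprc among them. The exception was Cd68, at 44.6, 42.05, 17.8 and 146 TPM in controls 1 and 2 and the libraries labelled CD95ko 1 and 2. Endothelial markers summed to at most 0.28 TPM and fibroblast markers to 0.97 to 4.52 TPM. The part of the epithelial marker difference in the results below was not tested.

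Of the 12 tested hypoxia targets, 6 were higher and 1 was lower in both libraries labelled CD95ko than in both controls, and of the 17 glycolytic enzymes 7 were higher and 1 was lower. Those counts come to 58.3% and 47.1% of each class, beside 47.6% of all tested genes whose groups did not overlap in either direction. All 36 members passed the filter on low values, which asked for 1 TPM or more in 2 or more libraries. In limma on log2(TPM + 1), 0 of the 36 members passed an adjusted p-value of 0.05, where 6 of all 11167 tested genes (0.0537%) did, 0.0179% higher and 0.0358% lower. At an unadjusted p under 0.05, limma gave 11 members, 10 higher and 1 lower, beside 14.9% of all tested genes, 9.25% higher and 5.68% lower. The members' median log2 difference (knockout minus control) was 0.46, and that of all tested genes was 0.13. It was 0.57 over the 33 members above 0 in every library. Under quantile normalization, which moves the median of all genes to 0.002, the members' median was 0.40. With each library centred on its median it was 0.26, and that of all tested genes was -0.07.

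Groups did not overlap for 17 of the 36 members, a share of 47.2% beside 47.6% of all tested genes. Of these, 15 were higher in the libraries labelled CD95ko, where 29.2% of all genes were, and 2 were lower, where 18.3% of all genes were. In each of the 4 knockout-control pairs, 6 members differed by over 2-fold one way, namely Car9, Ankrd37, Ddit4, Bnip3 and Pfkl (higher) and Adm (lower), beside 5.49% of all tested genes (3.53% higher and 1.96% lower). The number of members past the adjusted threshold rested on the knockout libraries. It was 13 without the library labelled CD95ko1, where 1356 of 10837 tested genes were called. It was 6 without the library labelled CD95ko2, where 313 of 10846 were. In those fits the lone clone is assumed to vary like the control pair. Both fits also share the same controls, so they are not independent. Aldoc changed direction between them, with a log2 difference of 2.90 without the library labelled CD95ko1 and -3.64 without the library labelled CD95ko2.

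**Figure D1:**
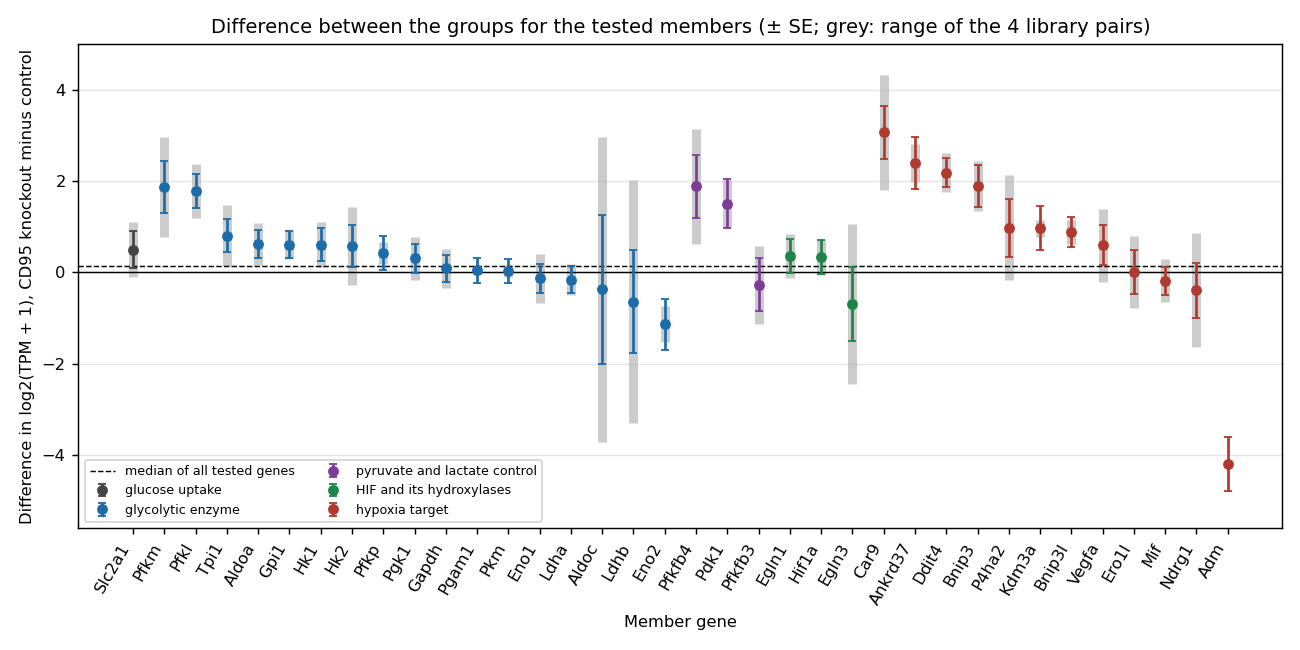
Difference in log2(TPM + 1) between the libraries labelled CD95 knockout and the controls for each of the 36 tested members (points, ± SE from limma), with the range of the 4 library pairs in grey and the median of all tested genes as a dashed line. Car9, at 3.06, has the highest value, Adm lies lowest because it is listed at 0 in both libraries labelled CD95ko, and Gapdh, Pgam1, Pkm, Eno1 and Ldha lie between -0.16 and 0.09.

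Car9 encodes carbonic anhydrase 9, a membrane enzyme that helps hypoxic tumour cells keep their inner pH, and lies on chromosome 4 from 43506966 to 43513729 (GENCODE M21, GRCm38). It was listed at 6.29 TPM in control 1, 15.2 TPM in control 2, 144.7 TPM in the library labelled CD95ko1 and 55.6 TPM in the library labelled CD95ko2. Both clones lay above both controls, and the clones differed from each other by more than 2-fold. Its mean was 9.34-fold higher than in the controls (log2 difference 3.06 ± 0.57 SE, limma adjusted p = 0.0904).

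Ddit4 encodes REDD1, an inhibitor of the growth kinase complex mTORC1 that is induced by hypoxia and other stresses, and lies on chromosome 10 from 59949669 to 59951834. It was at 211.9 and 181 TPM in controls 1 and 2, at 1114 TPM in the library labelled CD95ko1 and at 719 TPM in the library labelled CD95ko2. The group means were 196.5 ± 21.7 and 916.5 ± 279 TPM (SD, n = 2 each), a log2 difference of 2.19 ± 0.31 SE (limma adjusted p = 0.0594). Of the hypoxia targets that were higher, Ddit4 was the most abundant.

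Ankrd37, an ankyrin repeat gene known as a direct HIF-1 target, was weakly expressed, at 1.51 and 3.31 TPM in controls 1 and 2 and at 16.0 and 16.7 TPM in the libraries labelled CD95ko 1 and 2. The clones were nearly equal and lay far above both controls (log2 difference 2.40 ± 0.57 SE, limma adjusted p = 0.144). Bnip3, a mitochondrial outer membrane protein that acts as a receptor for mitophagy, was at 21.9 and 10.1 TPM in the controls and at 59.0 and 56.8 TPM in the libraries labelled CD95ko. Here too the clones were close together while the controls were about as far apart as 2-fold (log2 difference between groups 1.88 ± 0.46 SE, limma adjusted p = 0.147). Its relative Bnip3l, also a mitophagy receptor, was at 96.9 and 72.7 TPM in the controls and at 148.7 and 163 TPM in the libraries labelled CD95ko. The groups did not overlap for Bnip3l, with a smaller log2 difference of 0.88 ± 0.32 SE (limma adjusted p = 0.261).

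Adm went the other way. It encodes adrenomedullin, a secreted vasodilator peptide that is a common hypoxia marker in tumours, and lies on chromosome 7 from 110627661 to 110629820. Controls 1 and 2 had 17.6 and 17.2 TPM while both libraries labelled CD95ko had it at 0 (limma adjusted p = 0.0594). No fold is given against 0. Of 82 genes of the proteasome, chaperonin, RNA polymerase II, translation initiation and reference groups, 3 were listed at 0 in at least 1 library. They were Cct6b, Psma8 and Psmb11, which are tissue-restricted relatives of widely used genes. This check does not tell whether a gene at the level of Adm could be missed. Among the tested members, Aldoc and Ldhb were also listed at 0 in at least 1 library. In bulk RNA, fewer cells with a transcript and less of it per cell cannot be told apart.

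The promoters of these members are shown because each of these members was over 2-fold apart in all 4 pairs, as the 250 bases before the RefSeq start (GRCm38.p6) on the gene's strand, 5′ to 3′. Capitals mark matches to ACGTG, the usual core of the hypoxia response element, read on either strand, where the other strand reads CACGT. They also mark its variant GCGTG, whose other strand reads CACGC. A palindrome counts for both strands, so that these matches can overlap.
Car9 (chr4:43506776-43507025, + strand): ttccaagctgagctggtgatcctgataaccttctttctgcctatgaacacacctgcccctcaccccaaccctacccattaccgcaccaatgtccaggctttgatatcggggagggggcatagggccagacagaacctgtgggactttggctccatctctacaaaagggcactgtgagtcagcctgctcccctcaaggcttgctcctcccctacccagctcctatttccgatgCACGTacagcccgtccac
Ddit4 (chr10:59951771-59952020, - strand): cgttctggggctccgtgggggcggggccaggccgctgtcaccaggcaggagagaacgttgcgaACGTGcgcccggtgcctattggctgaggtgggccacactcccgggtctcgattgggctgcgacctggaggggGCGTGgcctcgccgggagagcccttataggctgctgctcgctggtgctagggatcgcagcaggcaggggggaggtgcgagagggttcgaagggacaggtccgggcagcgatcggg
Ankrd37 (chr8:45999851-46000100, - strand): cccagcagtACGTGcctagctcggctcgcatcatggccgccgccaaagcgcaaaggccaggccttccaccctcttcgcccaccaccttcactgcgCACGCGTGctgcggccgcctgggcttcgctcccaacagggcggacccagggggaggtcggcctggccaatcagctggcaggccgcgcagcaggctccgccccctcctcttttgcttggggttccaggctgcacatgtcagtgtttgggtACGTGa
Bnip3 (chr7:138909507-138909756, - strand): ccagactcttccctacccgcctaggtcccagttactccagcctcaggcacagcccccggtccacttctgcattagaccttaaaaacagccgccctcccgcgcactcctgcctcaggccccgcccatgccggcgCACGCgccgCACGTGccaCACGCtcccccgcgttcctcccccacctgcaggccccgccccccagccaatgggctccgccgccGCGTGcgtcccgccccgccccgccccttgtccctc
Pfkl (chr10:78009808-78010057, - strand): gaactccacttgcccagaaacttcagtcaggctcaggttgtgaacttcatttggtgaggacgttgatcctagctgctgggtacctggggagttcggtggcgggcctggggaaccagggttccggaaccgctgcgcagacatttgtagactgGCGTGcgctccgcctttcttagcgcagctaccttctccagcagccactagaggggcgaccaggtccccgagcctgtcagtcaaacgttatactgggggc
Adm (chr7:110627407-110627656, + strand): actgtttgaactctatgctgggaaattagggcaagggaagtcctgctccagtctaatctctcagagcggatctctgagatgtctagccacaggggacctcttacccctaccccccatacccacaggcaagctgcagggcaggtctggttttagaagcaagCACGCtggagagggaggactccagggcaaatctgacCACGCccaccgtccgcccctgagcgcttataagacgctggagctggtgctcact

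The windows of Car9, Bnip3, Ankrd37 and Ddit4 held ACGTG or its reverse complement. That of Car9 had a single match, CACGT from position -18, counted backwards from -1 at the base before the RefSeq start. In GENCODE M21, Car9 begins at 43506966, so this match lies within the gene there. By that annotation the windows of Ankrd37 and Pfkl lie wholly within the gene, and those of Bnip3 and Ddit4 partly. In Bnip3 CACGT at position -108 overlapped a match on the other strand at -107, and the GCGTG variant lay on either side at -117 and -99. Ankrd37 had ACGTG at both ends of the window, at -241 and -6. The windows of Adm and Pfkl held GCGTG or its reverse complement and no ACGTG. Over the 34 tested members with an entry (Bnip3l and Ndrg1 have none), 55.9% had ACGTG on either strand before at least 1 start, beside 26.0% of 8550 tested genes with an entry. For GCGTG the shares were 67.6% and 52.4%. Such matches describe letters and are not sites of binding. The set holds targets of HIF-1α by choice, and these shares use no difference between the groups, so they are no result of these libraries.

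The remaining hypoxia targets were mixed. Vegfa, the main growth factor for blood vessels, was at 50.7 and 30.4 TPM in controls 1 and 2 and at 44.0 and 81.2 TPM in the libraries labelled CD95ko 1 and 2, with overlapping groups (limma adjusted p = 0.562). Mif, a secreted cytokine and the most abundant hypoxia target here, was at 1171 and 1509.6 TPM in the controls and at 1430.2 and 958 TPM in the libraries labelled CD95ko. The library labelled CD95ko2 was the lowest of the 4 for Mif, and the groups overlapped (limma adjusted p = 0.824). Kdm3a, a histone demethylase, was about 2.08-fold higher on the mean with groups that did not overlap (8.64 ± 0.156 against 18.0 ± 3.13 TPM, SD, n = 2 each). Its limma adjusted p was 0.383.

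The 2 clones went apart for 3 further targets. Ndrg1, a stress response gene, was at 598 TPM in the library labelled CD95ko1 and at 127 TPM in the library labelled CD95ko2, on either side of the controls at 329 and 399 TPM. Ero1l, which drives disulfide bond formation in the endoplasmic reticulum, was at 79.0 and 31.0 TPM in the libraries labelled CD95ko 1 and 2, again on either side of the controls at 53.8 and 45 TPM. P4ha2, a collagen prolyl hydroxylase subunit, was at 34.0 TPM in the library labelled CD95ko2 and between 7.03 and 11.2 TPM in the other libraries. For these 3 genes the mean difference between the groups says little about either clone.

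**Figure D2:**
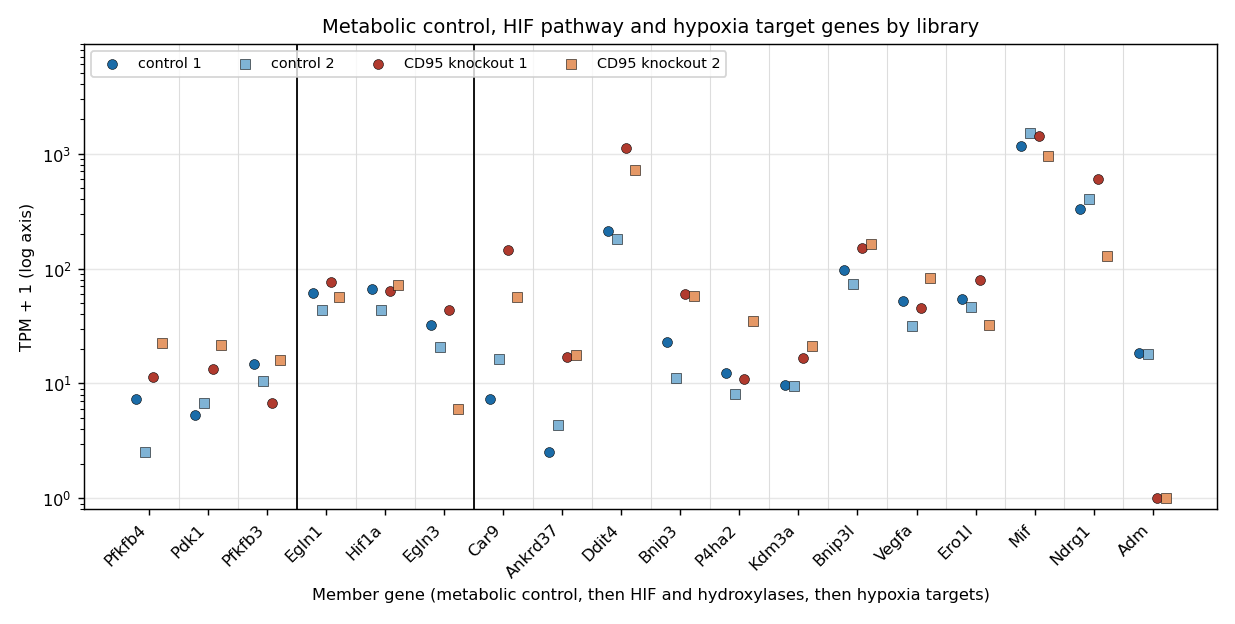
TPM + 1 on a log axis in each of the 4 libraries for the members of metabolic control, for HIF-1α and its hydroxylases and for the hypoxia targets, ordered within each class by the difference between the groups. Both libraries labelled CD95ko lie above both controls for Car9, Ankrd37, Ddit4 and Bnip3 and below them for Adm, while for Ndrg1 and Egln3 they lie on either side.

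The transcript of HIF-1α and those of its hydroxylases did not separate the groups. Hif1a, whose product is controlled mainly through protein stability, was at 65.8 and 42.7 TPM in controls 1 and 2 and at 63.3 and 71.0 TPM in the libraries labelled CD95ko 1 and 2 (log2 difference 0.33 ± 0.37 SE, limma adjusted p = 0.710). Egln1, the main HIF prolyl hydroxylase (PHD2), was at 60.7 and 42.1 TPM in the controls and at 75.8 and 55.9 TPM in the libraries labelled CD95ko. Groups overlapped for both genes. Egln3 (PHD3), a hydroxylase that is itself a HIF target, was at 31.5 and 19.7 TPM in the controls. It was at 42.3 TPM in the library labelled CD95ko1, the highest of the 4, and at 4.98 TPM in the library labelled CD95ko2, the lowest. Protein levels of HIF-1α were not measured in this series.

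Among the 17 tested glycolytic enzymes, those acting before the glyceraldehyde-3-phosphate step tended to lie higher in the libraries labelled CD95ko. Divided at that step after the values had been seen, 7 of the 9 upper enzymes were higher without overlap (29.2% of all tested genes were), and 0 of the 8 lower ones were. The median log2 difference was 0.61 for the upper enzymes and -0.05 for the lower ones, beside 0.13 for all tested genes. No enzyme passed the adjusted threshold in limma, and 3 had an unadjusted p under 0.05 (Pfkl, Pfkm and Tpi1), a share of 17.6% beside 14.9% of all tested genes.

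Glucose enters through Slc2a1 (GLUT1), at 42.7 TPM in control 1, 87.0 TPM in control 2, and 92.6 and 80.5 TPM in the libraries labelled CD95ko 1 and 2. Control 1 stood apart and the other 3 libraries were close together, so that the log2 difference of 0.49 became -0.01 without control 1. Slc2a3 (GLUT3) was listed at 0 throughout. Hk1, the more abundant of the hexokinases that trap glucose in the cell, was at 89.4 and 63.9 TPM in the controls and at 96.6 and 138 TPM in the libraries labelled CD95ko. Hk2, the isoform usually induced in tumours, ranged from 34.7 to 94.5 TPM with overlapping groups. Gpi1, glucose-6-phosphate isomerase, was at 209.8 and 239 TPM in the controls and at 294 and 398 TPM in the libraries labelled CD95ko, without overlap (log2 difference 0.61 ± 0.30 SE, limma adjusted p = 0.383).

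Phosphofructokinase commits sugar to glycolysis. Its subunits Pfkl and Pfkm had larger log2 differences than the other tested members classed as glycolytic enzymes. Pfkl, the liver-type subunit, on chromosome 10 from 77986947 to 78010083, was at 71.4 and 59.4 TPM in controls 1 and 2. It was at 163 TPM in the library labelled CD95ko1 and at 313 TPM in the library labelled CD95ko2, so both clones were more than 2-fold above both controls (log2 difference 1.78 ± 0.38 SE, limma adjusted p = 0.136). Pfkm, the muscle-type subunit, was at 19.6 and 6.55 TPM in the controls and at 34.2 and 57.8 TPM in the libraries labelled CD95ko (log2 difference 1.87 ± 0.57 SE, limma adjusted p = 0.199). Its difference was 1.14 without control 2 and 2.59 without control 1. Pfkp, the platelet type, lay within a narrower range of 36.2 to 58.2 TPM. The 3 subunits together gave 127 and 105.5 TPM in the controls, against 256 and 416 TPM in the libraries labelled CD95ko, or 2.89-fold more on the mean.

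Aldoa, the main aldolase, was at 1137 and 1505 TPM in the controls and at 1678 and 2393 TPM in the libraries labelled CD95ko. Tpi1, triosephosphate isomerase, was at 382 and 568 TPM in the controls and at 622 and 1069 TPM in the libraries labelled CD95ko. For both, the groups did not overlap, but the library labelled CD95ko1 lay only slightly above control 2. Without the library labelled CD95ko1 both passed the threshold in limma, Aldoa with a log2 difference of 0.87 (adjusted p = 0.0269) and Tpi1 with 1.20 (adjusted p = 0.00246), and without the library labelled CD95ko2 neither did. Aldoc, the brain-type aldolase, was at 12.2 and 10.8 TPM in the controls, listed at 0 in the library labelled CD95ko1 and at 92.1 TPM in the library labelled CD95ko2. No other member differed as much between the clones.

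The lower part of the pathway held the most abundant members, and none of them separated the groups except Eno2. Gapdh was at 2643 and 3716 TPM in controls 1 and 2 and at 3771 and 2945 TPM in the libraries labelled CD95ko 1 and 2. Pkm, pyruvate kinase, was at 2089.9 and 2403 TPM in the controls and at 2340.2 and 2254 TPM in the libraries labelled CD95ko. Both genes are among the 4 members (with Eno1 and Aldoa) that ranked within the 100 highest genes by mean TPM, and their spread between replicates exceeded the difference between groups. Pgam1, phosphoglycerate mutase, was at 482, 528, 505 and 535 TPM in the same order of libraries. For Gapdh, Pgam1, Pkm and Ero1l the sign of the difference changed when each library was centred on its median, to -0.11, -0.16, -0.16 and -0.19 on the log2 scale.

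Pgk1, phosphoglycerate kinase, was at 1037 and 916 TPM in the controls, at 1561 TPM in the library labelled CD95ko1 and at 928 TPM in the library labelled CD95ko2. Only the library labelled CD95ko1 stood out. Eno1, the main enolase, was at 1823 and 2283 TPM in the controls, at 2401 TPM in the library labelled CD95ko1 and at 1438 TPM in the library labelled CD95ko2. The clones thus lay on either side of the controls. Ldha, which makes lactate, was at 805.5 and 1065 TPM in the controls and at 760.03 and 908 TPM in the libraries labelled CD95ko, with overlapping groups (log2 difference -0.16 ± 0.29 SE, limma adjusted p = 0.840). Eno2, the neuron-type enolase, was the lower enzyme whose groups did not overlap, at 10.5 ± 4.12 TPM in the controls, against 4.05 ± 0.099 TPM in the libraries labelled CD95ko (SD, n = 2 each, limma adjusted p = 0.383).

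**Figure D3:**
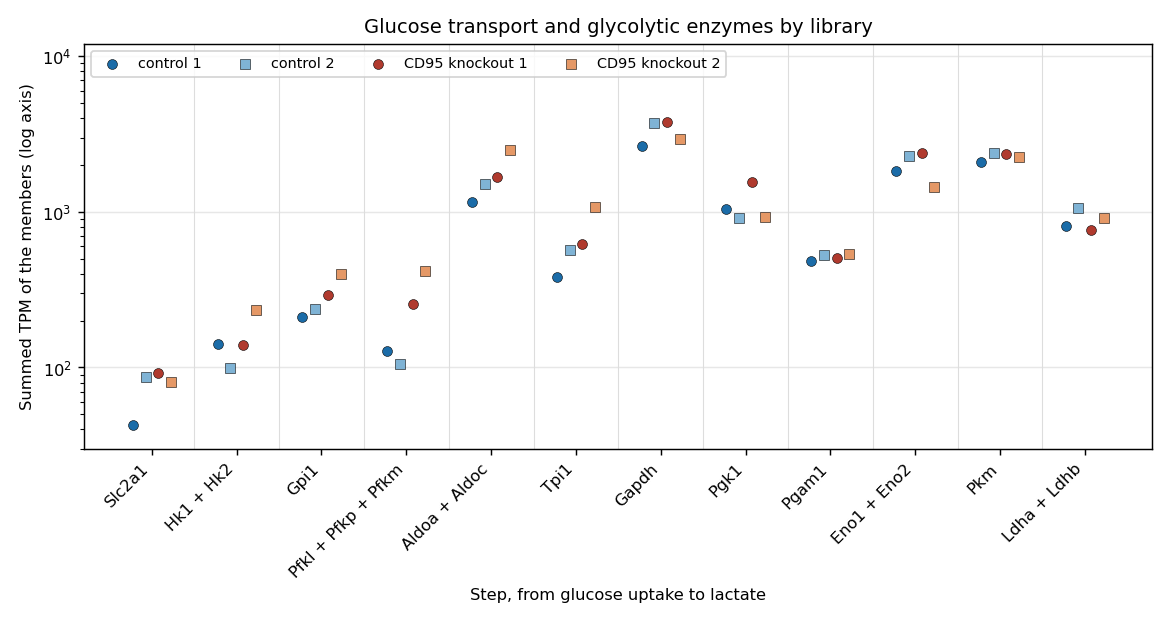
Summed TPM of the tested members at each step from glucose uptake to lactate, on a log axis, in each library. At phosphofructokinase (105.5 to 127 TPM in the controls, 256 to 416 TPM in the libraries labelled CD95ko) the groups separate most, and from Gapdh on they overlap at every step.

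Taken as 1 sum per library, the 17 enzymes amounted to 10913 TPM in control 1, 13445 TPM in control 2, 14332 TPM in the library labelled CD95ko1 and 13615 TPM in the library labelled CD95ko2. Both clones lay above both controls, the closest pair by a small margin. The exact two-sided permutation p was 0.333, the smallest that 2 libraries against 2 allow. Ribosomal protein genes took 24.7% and 29.7% of the TPM in controls 1 and 2 and 25.2% and 23.0% in the libraries labelled CD95ko 1 and 2. When TPM was rescaled without them, the sums were 14497 and 19119.9 TPM in the controls, against 19154 and 17686 TPM in the libraries labelled CD95ko, and the groups overlapped (exact permutation p = 0.667). The upper enzymes alone gave 2010.5 and 2527 TPM in the controls, against 2989.6 and 4600.5 TPM in the libraries labelled CD95ko. After that rescaling the groups did not overlap either (exact permutation p = 0.333 under both scalings). These enzymes were set apart after their values had been seen, so their sum adds no separate support.

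Shares within enzyme families are comparable because TPM is given per length. Pfkl made up 56.1% and 56.4% of the phosphofructokinase TPM in controls 1 and 2, 63.9% in the library labelled CD95ko1 and 75.3% in the library labelled CD95ko2. The Pfkp share had the opposite order, with 28.5% and 37.4% in the controls, against 22.8% and 10.8% in the libraries labelled CD95ko. Its TPM was nevertheless higher in both clones than in both controls. Hexokinase composition showed no such separation, as Hk2 held 37.0% and 35.2% in the controls, against 30.9% and 40.6% in the libraries labelled CD95ko. Ldha was at least 98.9% of lactate dehydrogenase in every library, and Ldhb, the heart-type subunit, was at 8.87 and 3.05 TPM in control 1 and the library labelled CD95ko2 and listed at 0 in the other two. In the enolase family, Eno3, the muscle type, held 14.0% and 14.9% in the controls, 3.51% in the library labelled CD95ko1 and 22.3% in the library labelled CD95ko2.

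**Figure D4:**
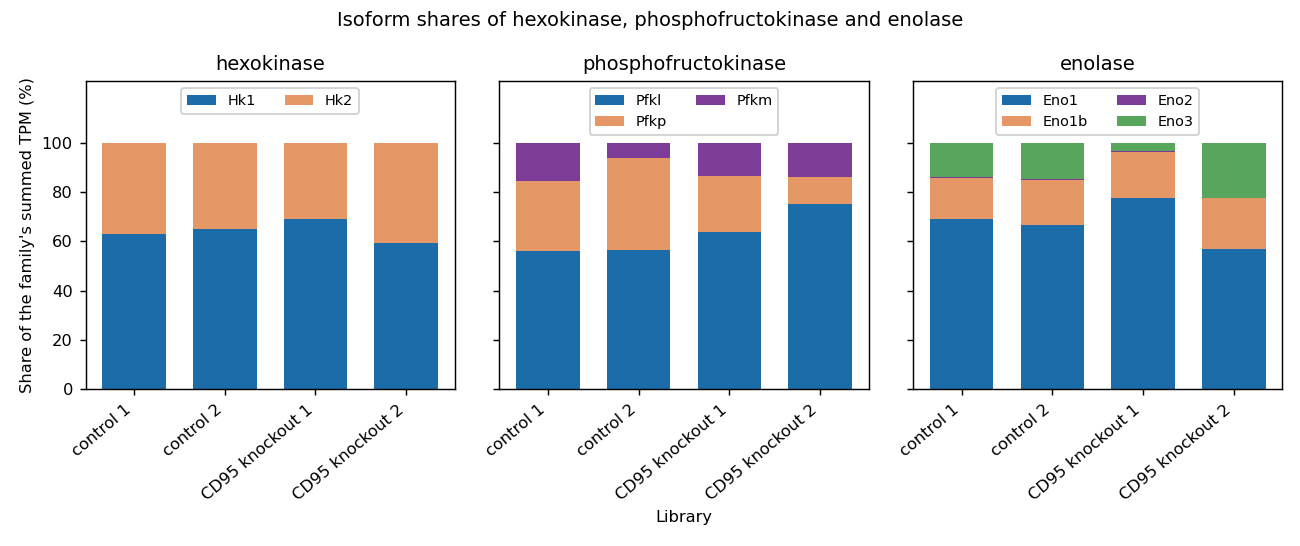
Share of each isoform in the summed TPM of hexokinase, phosphofructokinase and enolase in the 4 libraries (stacked bars, percent). The Pfkl share is 56.1% and 56.4% in the controls, against 63.9% and 75.3% in the libraries labelled CD95ko, while the Hk2 share ranges from 30.9% to 40.6% without separating the groups.

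The members Pdk1, Pfkfb3 and Pfkfb4, which act on the fate of pyruvate or the pace of glycolysis, lay between 1.55 and 21.6 TPM in the 4 libraries. Pdk1, the kinase that shuts pyruvate out of the mitochondria and a HIF-1 target, was at 4.29 and 5.70 TPM in the controls and at 12.2 and 20.6 TPM in the libraries labelled CD95ko (log2 difference 1.51 ± 0.54 SE, limma adjusted p = 0.253). Pdk3, a kinase of the same family that is no member, was more abundant and lower in both clones, at 46.7 and 44.5 TPM in the controls and at 29.3 and 28.9 TPM in the libraries labelled CD95ko (log2 difference -0.63 ± 0.37 SE, limma adjusted p = 0.459). Pfkfb4, a kinase and phosphatase that sets the level of the phosphofructokinase activator fructose-2,6-bisphosphate, was at 6.37 and 1.55 TPM in the controls and at 10.3 and 21.6 TPM in the libraries labelled CD95ko. The groups did not overlap for Pdk1 or Pfkfb4, although the controls differed by over 2-fold for Pfkfb4 (limma adjusted p = 0.259), whose log2 difference ran from 1.12 to 2.65 when a library was left out. Pfkfb3, its relative, ranged from 5.77 to 14.9 TPM with overlapping groups. Slc16a3, the lactate exporter MCT4, was listed at 0 in every library. The related exporter Slc16a1 (MCT1) was at 68.0 and 61.2 TPM in the controls and at 51.3 and 58.1 TPM in the libraries labelled CD95ko.

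Members varied within the groups as well as between them. Between the controls, 6 members were over 2-fold apart (Slc2a1, Pfkm, Ldhb, Pfkfb4, Bnip3 and Car9), as were 14.4% of all tested genes. Between the clones 9 were (Hk2, Aldoc, Ldhb, Pfkfb3, Car9, Ndrg1, Egln3, P4ha2 and Ero1l), as were 23.3% of all tested genes. The median absolute difference in log2(TPM + 1) over the members was 0.44 for the control pair and 0.60 for the clones, beside 0.44 and 0.52 over all tested genes. For the 4 knockout-control pairs it was 0.62 and 0.62 with the library labelled CD95ko1 and 1.00 and 1.13 with the library labelled CD95ko2. Over all tested genes the same pairs gave 0.43 and 0.60 with the library labelled CD95ko1 and 0.64 and 0.74 with the library labelled CD95ko2, which was thus the more distant library over all genes as well.

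Related genes outside the set were taken from lists of the same pathways. Of 45 tested further hypoxia targets, limma gave 7 higher and 5 lower at an unadjusted p under 0.05 and 0 past the adjusted threshold, with a median log2 difference of 0.04. The unadjusted share was 26.7%, beside 14.9% of all tested genes (9.25% higher and 5.68% lower). Narf was at 3.74 and 1.17 TPM in the controls and at 25.8 and 28.1 TPM in the libraries labelled CD95ko (log2 difference 3.12 ± 0.58 SE, limma adjusted p = 0.0904). Ccng2, an unusual cyclin linked to growth arrest, was at 15.5 and 6.39 TPM in the controls and at 54.6 and 45.6 TPM in the libraries labelled CD95ko (limma adjusted p = 0.137). Slc6a6, the taurine transporter, and Zfp395 were higher as well, with log2 differences of 1.69 and 1.96. Further hypoxia targets thus held members in both directions around a median near that of all genes.

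The pentose phosphate and glycogen list had 16 tested genes, of which limma gave 4 higher and 0 lower at an unadjusted p under 0.05 and 0 past the adjusted threshold. The unadjusted share was 25.0%, beside 14.9% of all tested genes (9.25% higher and 5.68% lower). G6pdx, which opens the pentose phosphate pathway, was at 38.3 and 29.8 TPM in the controls and at 98.8 and 117 TPM in the libraries labelled CD95ko (log2 difference 1.64 ± 0.35 SE, limma adjusted p = 0.136). Pgd, the next dehydrogenase of that pathway, was at 48.2 and 52.9 TPM in the controls and at 121 and 109 TPM in the libraries labelled CD95ko. Tkt, transketolase, and Pygb, a glycogen phosphorylase, were the others, with log2 differences of 0.88 and 1.41. Taldo1, transaldolase, was lower in both clones, at 220 and 264 TPM in the controls and at 167 and 148 TPM in the libraries labelled CD95ko (log2 difference -0.61 ± 0.30 SE, limma adjusted p = 0.376). The groups overlapped for Rpia and Rpe, and the list's median was 0.52 (0.29 under quantile normalization).

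Of 32 tested further genes of glycolysis and pyruvate fate, 6 were higher and 1 lower at an unadjusted p under 0.05 in limma, with a median log2 difference of 0.12 and 0 past the adjusted threshold. The unadjusted share was 21.9%, beside 14.9% of all tested genes (9.25% higher and 5.68% lower). Pgm2, a phosphoglucomutase, was at 36.5 and 30.8 TPM in the controls and at 95.8 and 106.6 TPM in the libraries labelled CD95ko (log2 difference 1.56 ± 0.34 SE, limma adjusted p = 0.136). Slc2a8, Pdk2 and Mdh1 were also higher in both clones, with log2 differences of 1.80, 2.56 and 0.94, Pdk2 being listed at 0 in control 2. Of the 16 tested oxygen sensing genes, 1 was higher (Os9) and 1 lower (Siah1b) by the same measure, and 0 passed the adjusted threshold. Of 24 tested regulators, 1 was higher and 1 lower at that level, and 0 passed. The shares of the oxygen sensing genes and the regulators were 12.5% and 8.33%, below the 14.9% of all tested genes. Myc, a transcription factor that drives many glycolytic genes, was at 716 and 659 TPM in the controls, at 311 TPM in the library labelled CD95ko1 and at 106 TPM in the library labelled CD95ko2 (log2 difference -1.91 ± 0.46 SE, limma adjusted p = 0.147). Txnip, an inhibitor of glucose uptake whose transcript responds to glucose, was at 172 and 76.3 TPM in the controls and at 321 and 352 TPM in the libraries labelled CD95ko (limma adjusted p = 0.159).

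Some members share sequence with other genes, which makes their values uncertain. Of the 25-nucleotide stretches of Eno1 transcripts, 28.5% also occur in Eno1b, which was listed at 437 and 629.5 TPM in the controls and at 576 and 524 TPM in the libraries labelled CD95ko. For Gapdh the share with the most similar deposited gene was 21.9%, and for Aldoa 7.5%. Annotated genes of any kind, pseudogenes included, shared 55.2% of the stretches of Pgk1, 40.7% of Mif, 37.9% of Pkm and 37.5% of Pgam1. Those shares were 0.8% for Pfkl, 1.0% for Car9, 0.8% for Adm and 0.0% for Ddit4. Other members whose groups did not overlap stood between. These shares were 24.7% for Bnip3l, 21.4% for Bnip3, 17.5% for Aldoa, 16.5% for Gpi1, 14.5% for Tpi1 and 9.6% for Pfkm.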

How the data were processed

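The 4 deposited tables list gene symbols with TPM values, 1 library each; per the submitters' processing notes, STAR 2.6.0, RSEM 1.3.0 and the build mm10 were used, and the annotation is not given in the sources used here. TPM was computed by the authors, per the file headers: reads divided by transcript length, scaled to the same sum in each library. Depth is therefore unknown, no counting interval could be given, and count tests could not be run. Libraries are scaled to a common sum, so a change in abundant genes moves all others. Nothing in the labels says that the controls came from separate cultures, so p-values measure only the spread between these libraries.

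Titles gave the groups. The 11167 genes that reached 1 TPM in 2 or more libraries were transformed to log2(TPM + 1) and compared with limma 3.58.1 in R 4.3.3 (eBayes, trend on mean level; two-sided p adjusted by Benjamini-Hochberg over all tested genes; threshold 0.05). SE is limma's moderated standard error. Differences on this scale understate those of weakly expressed genes. Overlap and 2-fold differences were counted over the 4 library pairs on the same scale. The procedure was run on simulated data with 200 changed genes and noise drawn independently for each gene and library. That setting holds no differences shared across genes within a clone, so it does not tell how the fit behaves with them. Members and lists were chosen with earlier results of these data known. Values in every library are given for Fas, for members with an unadjusted p under 0.05 or over 2-fold apart in all pairs, for the most abundant member of each glycolytic step and for Hif1a, Egln1, Egln3, Vegfa, Bnip3, Ddit4 and Mif, with others where a sentence needs them; from each list up to 4 genes with the smallest p are named. Slc16a1, Eno3, Pdk3, Taldo1, Rpia and Rpe, and the further members given in every library, were chosen after their values had been seen. Lists were of further hypoxia targets, oxygen sensing, glycolysis and pyruvate fate, the pentose phosphate pathway and glycogen, regulators, and sequence copies (1 tested, Eno1b, log2 difference 0.07). Positions and shared sequence used GENCODE M21 (GRCm38); promoters came from RefSeq.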

Additional observations from a re-analysis of the deposited data

How the results depend on the processing

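The number of genes past the adjusted threshold, 6 as reported, was 0 under these settings: pseudocount 0.1, no filter, eBayes lacking the trend, quantile normalization and median centring. At an unadjusted p under 0.05 limma gave 1553, 1636, 1531, 1862 and 1848 genes there, beside 1667 as reported. It was 38 with a filter of TPM 1 in at least 1 library, 52 with robust eBayes, and 0 to 1356 when a library was left out. The number of members called, 0 as reported, was 2 (Adm and Ddit4) with that weaker filter and 2, the same genes, with robust eBayes, and 0 to 13 when a library was left out; the fits without either control called 0, and dropping 1 control also removes Adm by the filter. The cause of these changes was not tested.

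The members' median difference of 0.46 was 0.26 with median centring, where that of all genes was -0.07, and 0.33 to 0.62 when a library was left out. Of the 36 members, 32 kept their direction under all settings with 4 libraries. Median centring turned Gapdh to -0.11, Pgam1 to -0.16, Pkm to -0.16 and Ero1l to -0.19. When a library was left out, the range crossed 0 for Slc2a1 (-0.011 to 1.00), Gapdh (-0.16 to 0.33), Pgk1 (-0.071 to 0.68), Pgam1 (-0.023 to 0.11), Eno1 (-0.50 to 0.23), Pkm (-0.065 to 0.14), Ldha (-0.36 to 0.044), Egln3 (-2.12 to 0.74), Mif (-0.47 to 0.11) and Fas (-1.42 to 0.16). The summed TPM of the enzymes differed by 1794 as reported and by 528 to 3060.3 when a library was left out.

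Libraries that bear the same number were not treated as pairs. Across genes, their deviations from the mean of their group had a correlation of -0.081. With 2 libraries per group, this value only sets the difference between the controls against that between the clones. It cannot tell whether libraries were paired. A replicate block gave 2 called genes and 0 called members. DESeq2 and edgeR, listed for the case of counts, were not run on TPM. Since TPM hides depth, a gene listed at 0 may be below what a library could detect.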

Other observations

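Among the further hypoxia-responsive genes, the metallothioneins, which bind zinc and copper, set control 2 apart from the other libraries. Mt1 was at 1107 TPM in control 2, against 255 TPM in control 1 and 288 and 120.4 TPM in the libraries labelled CD95ko 1 and 2. Mt2 was at 1121 TPM in control 2, against 148 TPM in control 1 and 115 and 38.8 TPM in the libraries labelled CD95ko. Hmox1, the heme-degrading enzyme, was instead alike in the controls (51.0 and 53.4 TPM) and lower in both clones (27.4 and 17.6 TPM, limma adjusted p = 0.234). The labels do not say which control carried Cas9, and no relation to it was tested.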
